A study of Mus musculus with 24 samples.

Results

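The comparison concerns H3K27me3 in mammary basal cells that carry a high level of Tspan8 (Tspan8hi), set against basal cells that lack it (Tspan8-). Its members are the 8 H3K27me3 libraries of the series, of 24 samples in all. The 4 Tspan8hi libraries are 2 of Lgr5+Tspan8hi and 2 of Lgr5-Tspan8hi cells, and the 4 Tspan8- libraries are 2 of Lgr5+Tspan8- and 2 of Lgr5-Tspan8- cells, with equal weight on both Lgr5 states. All cells were untreated basal cells sorted from the mammary glands of C57BL/6 females. Tspan8 is a tetraspanin of the cell membrane and Lgr5 a receptor for R-spondins, and both were used only to sort the cells. The other samples are 8 libraries of H3K4me3 in the same subpopulations, read below at the same genes, and 8 input samples, which were not analysed here. No age is given, nor how many animals were pooled or whether replicates came from separate ones. The p-values thus speak only of the spread among these 8 libraries, and that spread may be technical.

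H3K27me3 is trimethylated lysine 27 of histone H3. It is written by the Polycomb repressive complex 2, whose catalytic subunit is Ezh2 or Ezh1, is removed by the demethylases Kdm6a and Kdm6b, and covers genes that are held silent. It lies densely over the Hox clusters and other developmental regulators, in broad low domains elsewhere, and over the inactive X chromosome of female cells. H3K4me3 marks promoters that are active or poised, and promoters that carry both marks are called bivalent.

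The mark of a gene is read against the CG content of its promoter, because Polycomb complexes of mammals are known to settle on unmethylated CG-rich DNA. The promoters shown are those of 3 genes with lower and 3 genes with higher H3K27me3 in Tspan8hi libraries, taken from the calls that held under most alternative settings and had an entry in the RefSeq promoter table of GRCm38.p6. Each runs from 250 bases before to 50 bases after the start that the table gives, 5′ to 3′ on the strand of the gene, and every CG pair is in capitals.
Enah, lower, chr1:182019931-182020230, minus strand: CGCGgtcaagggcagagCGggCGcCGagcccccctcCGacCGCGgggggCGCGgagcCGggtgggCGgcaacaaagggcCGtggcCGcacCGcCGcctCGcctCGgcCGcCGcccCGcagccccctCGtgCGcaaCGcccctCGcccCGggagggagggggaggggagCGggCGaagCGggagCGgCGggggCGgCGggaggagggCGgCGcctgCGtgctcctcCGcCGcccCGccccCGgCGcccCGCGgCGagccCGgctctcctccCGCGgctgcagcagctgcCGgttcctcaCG
Ocln, lower, chr13:100552669-100552968, minus strand: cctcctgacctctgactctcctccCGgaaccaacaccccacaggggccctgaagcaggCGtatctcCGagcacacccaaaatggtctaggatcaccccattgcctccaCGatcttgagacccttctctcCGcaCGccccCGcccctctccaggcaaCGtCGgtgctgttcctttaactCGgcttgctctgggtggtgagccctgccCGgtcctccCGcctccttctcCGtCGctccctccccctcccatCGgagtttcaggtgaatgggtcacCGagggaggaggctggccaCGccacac
Igf2bp2, lower, chr16:22163250-22163549, minus strand: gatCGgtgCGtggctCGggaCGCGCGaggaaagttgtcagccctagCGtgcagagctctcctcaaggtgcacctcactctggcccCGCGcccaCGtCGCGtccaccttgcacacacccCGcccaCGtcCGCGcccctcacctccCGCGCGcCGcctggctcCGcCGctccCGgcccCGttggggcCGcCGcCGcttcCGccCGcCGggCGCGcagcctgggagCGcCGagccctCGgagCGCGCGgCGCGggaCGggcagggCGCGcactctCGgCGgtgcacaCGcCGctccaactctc
Ntf3, higher, chr6:126166695-126166994, minus strand: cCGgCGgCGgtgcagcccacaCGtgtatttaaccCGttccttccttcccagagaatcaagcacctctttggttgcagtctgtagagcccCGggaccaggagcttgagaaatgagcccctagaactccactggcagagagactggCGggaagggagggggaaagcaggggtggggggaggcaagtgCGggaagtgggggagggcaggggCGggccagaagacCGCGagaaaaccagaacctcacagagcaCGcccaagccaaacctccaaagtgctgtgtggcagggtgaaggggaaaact
Stac, higher, chr9:111690299-111690598, minus strand: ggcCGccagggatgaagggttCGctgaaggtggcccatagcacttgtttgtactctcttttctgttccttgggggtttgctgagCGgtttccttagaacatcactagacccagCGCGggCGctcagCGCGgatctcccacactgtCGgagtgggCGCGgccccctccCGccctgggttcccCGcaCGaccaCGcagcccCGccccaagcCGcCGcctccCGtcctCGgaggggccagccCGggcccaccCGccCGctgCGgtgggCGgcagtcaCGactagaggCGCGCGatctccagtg
Mef2c, higher, chr13:83503784-83504083, plus strand: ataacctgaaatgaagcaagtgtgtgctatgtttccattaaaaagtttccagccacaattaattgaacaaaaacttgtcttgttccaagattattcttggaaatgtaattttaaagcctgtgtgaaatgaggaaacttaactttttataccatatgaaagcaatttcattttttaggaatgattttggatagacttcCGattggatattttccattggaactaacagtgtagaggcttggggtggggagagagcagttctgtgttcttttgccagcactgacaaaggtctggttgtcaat
The Enah window lies inside the annotated gene, at an internal start. It holds 49 CG pairs and the promoter of Igf2bp2 47. Of the 16186 promoters with a tested gene, 1.32% and 1.87% hold at least as many. The promoter of Ocln holds 17 (43.6% of promoters hold at least as many) and that of Ntf3 12 (53.9%). That of Stac holds 29 (17.2%) and that of Mef2c 1 (95.8%). Over all promoters the median was 13. It was 19.5 over the 32 promoters of genes with lower H3K27me3 and 12.5 over the 16 promoters of genes with higher H3K27me3. The CG pair reads the same on both strands, and its count is a description of these windows.

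Total counts ran from 2639862 to 6300093 in the Tspan8hi and from 4338218 to 6972189 in the Tspan8- libraries. Replicates of the same subpopulation were not copies of each other, as their chi-square per degree of freedom was 3.59 to 5.91. Effective depth compares the genes left at 0 with those expected from independent reads, and is the share of the total that would leave as many at 0. It was 54.1% ± 15.5 in Tspan8hi and 75.9% ± 3.51 in Tspan8- libraries (4 libraries each, ± SD; p = 0.0286 in an exact permutation test, two-sided, which is as low as its 70 arrangements can go). Over autosomal genes of at least 10 kb the difference did not pass (-23.4 points, exact permutation p = 0.171), and over all genes it was -14.2 instead of -21.9 points without Lgr5-Tspan8hi replicate 1. That library stood apart at 31.1%, with the lowest total and 4191 genes at 0. The labels were checked at the sorting gene. In CPM, counts relative to the scaled library total, H3K4me3 at Tspan8 was 80.7 ± 8.89 CPM in Tspan8hi and 25.2 ± 4.17 CPM in Tspan8- libraries (± SD of 4 libraries, as in all such pairs of means here). H3K27me3 at Tspan8 was 12.5 ± 2.24 CPM in Tspan8hi and 21.4 ± 5.46 CPM in Tspan8- libraries, and the difference did not pass the test (-0.72, edgeR adjusted p = 0.104). Single marker genes of cell types, none of them luminal, were read with H3K4me3 as well. The basal keratin genes Krt5 and Krt14 carried 140.3 and 133 CPM in Tspan8hi and 141 and 129 CPM in Tspan8- libraries, while the leukocyte gene Ptprc carried 4.2 and 2.56 CPM and the endothelial gene Pecam1 11.5 and 9.56 CPM. Median H3K4me3 log2 differences (Tspan8hi minus Tspan8-) over marker lists were -0.06 (basal), -0.07 (luminal progenitor), 0.08 (hormone-sensing luminal) and 0.18 (pan-luminal). They were -0.26 (fibroblast), -0.17 (pericyte), 0.25 (immune), 0.31 (endothelial) and -0.46 (epidermal keratinocyte). For Schwann and neural genes the median was -0.11, for adipocyte genes 0.03, and over all genes tested -0.01. The purity of the sorted cells was not tested.

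H3K27me3 differed between Tspan8hi and Tspan8- libraries at 74 genes (0.335% of those tested), led by lower levels over Enah, Cecr2 and Ocln and by higher levels over Tbx2 and Pde3a. It was higher in Tspan8hi libraries at 21 genes (0.095% of 22099 tested) and lower at 53 (0.24%), with edgeR's quasi-likelihood test and a Benjamini-Hochberg adjusted p under 0.05. At an unadjusted p under 0.05 there were 1164 higher (5.27%) and 1679 lower genes (7.6%), or 12.9% of those tested. Of the genes past the threshold, 17 of the 21 higher and 44 of the 53 lower had libraries of the groups that did not overlap, which 2.68% of all tested genes had upward, 3.54% downward and 6.22% in either direction. The differences were moderate, from 0.39 to 1.23 upward and from -1.28 to -0.33 on the log2 scale, and the biological coefficient of variation was 16.8%. The split by direction moved with the scaling, to 36 higher and 28 lower with library totals and 53 higher and 39 lower with loess offsets against mean abundance. Calls rested on several single libraries. Of the 74, 6 were kept when Lgr5+Tspan8- replicate 1 was dropped and 10 when replicate 2 of that subpopulation was. Dropping a Lgr5+Tspan8hi library kept 17 (replicate 1) or 18 (replicate 2), dropping Lgr5-Tspan8- replicate 2 kept 26, and dropping Lgr5-Tspan8hi replicate 1 kept 35. Only Enah, Cecr2, Ocln, Tbx2 and Pde3a passed under all 17 alternatives.

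Enah and Ocln had the lowest H3K27me3 in Tspan8hi relative to Tspan8- libraries among the calls that held throughout, and both lay lowest in Lgr5+Tspan8hi cells. Enah encodes an Ena/VASP protein that promotes the growth of actin filaments (chr1:181896384-182027556, minus strand). The Lgr5+Tspan8hi libraries had 65.5 and 65.4 CPM and the Lgr5-Tspan8hi libraries 110.4 and 93.3 CPM over Enah, against 148 and 116 CPM in Lgr5+Tspan8- and 268 and 322 CPM in Lgr5-Tspan8- libraries. The libraries come from many cells each, so a lower level per cell and fewer cells with the mark cannot be told apart. No library of the 2 groups overlapped, and the Lgr5-Tspan8- pair stood highest. The means were 83.6 ± 22.2 CPM in Tspan8hi and 214 ± 97.6 CPM in Tspan8- libraries, with a log2 difference of -1.28 ± 0.11, edgeR adjusted p = 2.79e-07. The difference was -1.01 ± 0.16 in Lgr5+ and -1.54 ± 0.16 in Lgr5- cells on the log2 scale. Of 19 tested regulators of actin filaments Enah alone passed, and the median of that list was 0.09. Ocln encodes occludin, a membrane protein of tight junctions (chr13:100496504-100552718, minus strand). Over Ocln there were 45.6 and 39.4 CPM in Lgr5+Tspan8hi and 56.5 and 61.96 CPM in Lgr5-Tspan8hi cells, and 70.9 and 62.2 CPM in Lgr5+Tspan8- and 125 and 134 CPM in Lgr5-Tspan8- cells. The highest Tspan8hi library, 62.0 CPM, and the lowest Tspan8- library, 62.2 CPM, nearly met, and the excess in Tspan8- cells was carried mainly by Lgr5- cells. The mean was 50.9 ± 10.2 CPM in Tspan8hi and 97.99 ± 36.7 CPM in Tspan8- libraries (log2 fold change -0.88 ± 0.12, edgeR adjusted p = 0.00036). Among 21 tested genes of tight and adherens junctions Ocln was the only one to pass, and the luminal claudin gene Cldn7 was below 0 without passing (-0.69, edgeR adjusted p = 0.118).

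Cecr2 encodes a bromodomain protein that takes part in chromatin remodelling (chr6:120666314-120771191, plus strand), and its level differed in both Lgr5 states by nearly the same amount. H3K27me3 over Cecr2 was 172 and 162 CPM in the Lgr5+Tspan8hi and 186 and 206 CPM in the Lgr5-Tspan8hi libraries, against 308 and 274 CPM in the Lgr5+Tspan8- and 302 and 349 CPM in the Lgr5-Tspan8- libraries. The 4 Tspan8hi libraries lay between 162 and 206 CPM and the 4 Tspan8- libraries between 274 and 349 CPM. The log2 fold change was -0.77 ± 0.09 (edgeR adjusted p = 0.000128), with -0.80 in Lgr5+ and -0.73 in Lgr5- cells. It was the only one of 18 tested chromatin remodelling genes to pass. The writers, readers and erasers of the mark itself had no gene past the threshold among 21 tested, and their median was 0.11.

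Plag1, Igf2bp2 and Zbtb16 were lower as well. Plag1 encodes a zinc finger factor known as an oncogene of salivary gland tumours (chr4:3898769-3938430, minus strand) and had 110.3 ± 14.1 CPM in Tspan8hi and 174 ± 29.6 CPM in Tspan8- libraries (log2 fold change -0.65 ± 0.10, edgeR adjusted p = 0.00204). Its Tspan8hi libraries ended at 125 CPM, below the lowest Tspan8- library at 142 CPM. Igf2bp2, an RNA-binding protein of the insulin-like growth factor axis (chr16:22059009-22163299, minus strand), had 129 ± 26.8 CPM in Tspan8hi and 198 ± 34.5 CPM in Tspan8- libraries (log2 fold change -0.62 ± 0.10, edgeR adjusted p = 0.00341). Zbtb16, a transcriptional repressor of stem and progenitor cells, had 151 ± 35.6 CPM in Tspan8hi and 254 ± 89.1 CPM in Tspan8- libraries (log2 fold change -0.74 ± 0.15, edgeR adjusted p = 0.0206), but its libraries overlapped and the call was lost with DESeq2, limma-voom and 7 other alternatives.

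In the Hedgehog pathway the transcription factors Gli1 and Gli2 were lower while the rest of the 14 tested genes did not pass. Over all tested genes 0.24% were called lower, and the list was chosen with earlier results of these data known. Gli2, the main activator of the pathway (chr1:118834061-119054405, minus strand), was read in each library as follows. The Lgr5+Tspan8hi libraries had 219 and 205 CPM and the Lgr5-Tspan8hi libraries 300.3 and 339 CPM over Gli2, against 319.5 and 343 CPM in Lgr5+Tspan8- and 395 and 468 CPM in Lgr5-Tspan8- libraries. The Lgr5-Tspan8hi pair overlapped with the Lgr5+Tspan8- pair, while within each Lgr5 state the Tspan8hi libraries were the lower ones. The log2 fold change was -0.54 ± 0.09 (edgeR adjusted p = 0.00437). Gli1, itself a target that the pathway switches on (chr10:127329882-127341579, minus strand), had 28.4 ± 4.06 CPM in Tspan8hi and 45.8 ± 9.91 CPM in Tspan8- libraries (log2 fold change -0.66 ± 0.15, edgeR adjusted p = 0.0494), with groups that did not overlap. Gli1 overlaps Arhgap9 in the annotation, and how reads in the overlap were counted is not known. Its call was lost under 8 of 17 alternatives. Gli3, the main repressor of the pathway, went the other way without passing, at 105 ± 10.3 CPM in Tspan8hi and 78.6 ± 14.5 CPM in Tspan8- libraries (log2 difference 0.42, edgeR adjusted p = 0.135), and the ligand gene Shh had 79.96 ± 11.2 CPM in Tspan8hi and 102 ± 20.7 CPM in Tspan8- libraries (-0.35, edgeR adjusted p = 0.209).

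Of the lysyl oxidases, which crosslink collagen and elastin, Loxl1 and Lox were lower, while Loxl2, Loxl3 and Loxl4 were tested without passing. These 2 were the only calls among 25 tested matrix genes, against 0.24% of all tested genes called lower. Loxl1 (chr9:58287723-58313212, minus strand) had 73.9 ± 8.67 CPM in Tspan8hi and 111 ± 22.5 CPM in Tspan8- libraries (log2 fold change -0.59 ± 0.12, edgeR adjusted p = 0.0196). Lox had 22.7 ± 3.88 CPM in Tspan8hi and 38.9 ± 7.21 CPM in Tspan8- libraries (log2 fold change -0.75 ± 0.16, edgeR adjusted p = 0.0349). In both genes every Tspan8hi library was below every Tspan8- library, and both calls were lost when any of 6 of the 8 libraries was left out. Most other matrix genes lay on the other side of 0. Of 25 tested, 19 were above 0 with a median of 0.27, against 0.02 over all genes tested, and none passed as higher. The median was 0.71 in Lgr5+ and -0.03 in Lgr5- cells. Leaving out Lgr5+Tspan8hi replicate 1 gave a median of 0.14, and leaving out replicate 2 of Lgr5-Tspan8- gave 0.16. All genes of like density, between 0.418 and 0.651 CPM per kb, had a median of 0.14. The fibrillin gene Fbn2 came nearest, at 175 ± 27.9 CPM in Tspan8hi and 123 ± 24.7 CPM in Tspan8- libraries (0.51, edgeR adjusted p = 0.0596), and the basement membrane collagen gene Col4a1 had 54.2 ± 12.4 CPM in Tspan8hi and 35.7 ± 7.87 CPM in Tspan8- libraries (0.60, edgeR adjusted p = 0.1).

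Pparg, the nuclear receptor that drives fat cell formation (chr6:115360879-115490404, plus strand), was the only adipocyte marker past the threshold. Over Pparg there were 228 and 249.8 CPM in Lgr5+Tspan8hi and 275 and 278 CPM in Lgr5-Tspan8hi cells, and 367 and 338 CPM in Lgr5+Tspan8- and 361 and 382 CPM in Lgr5-Tspan8- cells. All Tspan8hi libraries were below all Tspan8- libraries, in both Lgr5 states. The log2 fold change was -0.49 ± 0.09 (edgeR adjusted p = 0.00653). The other 10 tested adipocyte markers did not pass, and the median of the list was 0.08. Summed over the list without Pparg, H3K27me3 was 235 to 257 CPM in Tspan8hi and 235 to 251 CPM in Tspan8- libraries.

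Other lower genes, given here by their call, were the scaffolds Shank2 (-0.60) and Shank3 (-0.53), the synaptotagmin Syt14 (-0.53), the tethering protein Esyt3 (-0.67), the vesicle priming factor Unc13b (-0.49) and the motor Myo5b (-0.39). The protease Adamts6 had 142 ± 13.6 CPM in Tspan8hi and 241 ± 48.8 CPM in Tspan8- libraries (log2 fold change -0.75 ± 0.12, edgeR adjusted p = 0.00222). The chemokine gene Cxcl9 had 17.3 ± 0.890 CPM in Tspan8hi and 32.8 ± 7.19 CPM in Tspan8- libraries (log2 fold change -0.89 ± 0.16, edgeR adjusted p = 0.00988). The neighbouring transporter genes Abca8b and Abca8a, 29.4 kb apart on chromosome 11, were lower together (-0.67, edgeR adjusted p = 0.00768 and -0.49, edgeR adjusted p = 0.0347). Also called, at log2 fold changes between -0.68 and -0.35, were Fsd2, Rps6ka2, Skap2, Srcin1, Septin10, Ttll9, Pced1b, Shtn1, Bend7, Cdc14b, Togaram2, Ndnf, Erich2, Cerk, Slc14a1, Trim36, Plxna4, Lmo2 and Ube2cbp. The uncharacterized transcripts 4931419H13Rik (-0.55) and 4932438H23Rik (-0.72) passed too. A further 3 lower genes had no symbol, and 8 were X-linked.

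**Figure D1:**
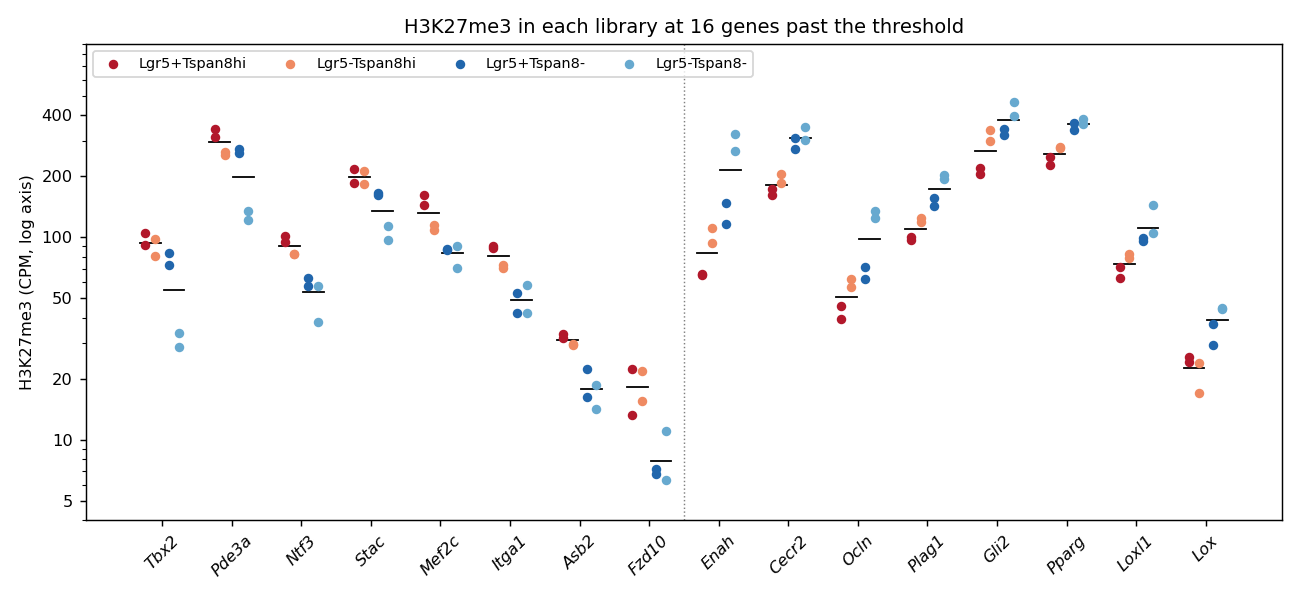
H3K27me3 in each of the 8 libraries, in CPM on a log axis, at 8 genes that were higher and 8 that were lower in Tspan8hi libraries. Points are libraries coloured by subpopulation, with Tspan8hi left of Tspan8- at each gene, and horizontal lines are the means of 4 libraries; at Tbx2 and Pde3a the Lgr5-Tspan8- pair lies far below the others, and at Enah and Ocln far above.

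Higher H3K27me3 in Tspan8hi libraries was led by Tbx2 and Pde3a, and at both the low value of Lgr5-Tspan8- cells made most of the difference. Tbx2 encodes a T-box transcriptional repressor with a part in mammary development (chr11:85832615-85841948, plus strand). H3K27me3 over Tbx2 was 91.6 and 105 CPM in the Lgr5+Tspan8hi and 80.6 and 97.8 CPM in the Lgr5-Tspan8hi libraries, against 83.4 and 73.3 CPM in the Lgr5+Tspan8- and 33.5 and 28.8 CPM in the Lgr5-Tspan8- libraries. The 3 other subpopulations lay between 73.3 and 105 CPM and Lgr5-Tspan8- cells at 33.5 and 28.8 CPM. The log2 fold change was 0.93 ± 0.12 (edgeR adjusted p = 0.00036), made of 0.33 ± 0.17 in Lgr5+ and 1.53 ± 0.18 in Lgr5- cells. The gap between both values did not pass over all genes (edgeR interaction adjusted p = 0.159, unadjusted 3.88e-05). The transcript 2610027K06Rik starts 226 bp from Tbx2 on the opposite strand and rose with it, at 61.5 ± 6.62 CPM in Tspan8hi and 39.7 ± 14.4 CPM in Tspan8- libraries (log2 fold change 0.70 ± 0.13, edgeR adjusted p = 0.0115). Pde3a breaks down cyclic AMP in heart and smooth muscle (chr6:141249269-141506862, plus strand). The Lgr5+Tspan8hi libraries had 312 and 343 CPM and the Lgr5-Tspan8hi libraries 256 and 264 CPM over Pde3a, against 272 and 262 CPM in Lgr5+Tspan8- and 135 and 122 CPM in Lgr5-Tspan8- libraries. Again the Lgr5-Tspan8- pair stood alone, with a log2 difference of 0.66 ± 0.09, edgeR adjusted p = 0.000439, and the value was 0.30 in Lgr5+ and 1.02 in Lgr5- cells. Stac, an adaptor protein of voltage-gated calcium channels (chr9:111561437-111690588, minus strand), was also lowest in the Lgr5-Tspan8- pair, at 199 ± 17.4 CPM in Tspan8hi and 134 ± 34.6 CPM in Tspan8- libraries (log2 fold change 0.60 ± 0.10, edgeR adjusted p = 0.00437) with groups that did not overlap.

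Among 24 tested genes of smooth muscle and contraction 4 were called higher in Tspan8hi libraries, against 0.095% of all tested genes. The list was chosen with earlier results of these data known, so this count is a description and no test of the list. Of the members 20 were above 0, with a median of 0.37. Over all genes 11653 of 22099 lay above 0, with a median of 0.02. Of genes of like density, between 0.418 and 0.651 CPM per kb, 71.2% were above 0, with a median of 0.14. Among these 2095 genes 5 were called higher. The list members past the threshold were Pde3a, Itga1, Mrvi1 and Asb2, all of which earlier results of these data had named. Itga1, the alpha chain of a collagen-binding integrin (chr13:114958079-115101964, minus strand), showed clear separation. Over Itga1 there were 90.5 and 87.9 CPM in Lgr5+Tspan8hi and 70.8 and 73.1 CPM in Lgr5-Tspan8hi cells, and 42.1 and 52.7 CPM in Lgr5+Tspan8- and 57.8 and 42.3 CPM in Lgr5-Tspan8- cells. The lowest Tspan8hi library, 70.8 CPM, was above the highest Tspan8- library, 57.8 CPM (log2 fold change 0.72 ± 0.13, edgeR adjusted p = 0.00768). Itga1 overlaps Pelo. Mrvi1, a substrate of cGMP-dependent kinase in smooth muscle, had 63.7 ± 6.33 CPM in Tspan8hi and 39.9 ± 7.33 CPM in Tspan8- libraries (log2 fold change 0.67 ± 0.14, edgeR adjusted p = 0.0347). Asb2, the subunit of a ubiquitin ligase that targets filamins (chr12:103321142-103356001, minus strand), had 31.1 ± 1.86 CPM in Tspan8hi and 17.9 ± 3.51 CPM in Tspan8- libraries (log2 fold change 0.81 ± 0.17, edgeR adjusted p = 0.0357), also with no overlap. Of the members that did not pass, Mylk had 122 ± 26.5 CPM in Tspan8hi and 94.3 ± 22.3 CPM in Tspan8- libraries (0.38, edgeR adjusted p = 0.13), Kcnma1 824 ± 62.5 CPM in Tspan8hi and 677 ± 62.6 CPM in Tspan8- libraries (0.29, edgeR adjusted p = 0.102) and Acta2, with few counts, 3.39 ± 2.34 CPM in Tspan8hi and 4.34 ± 1.17 CPM in Tspan8- libraries (-0.30, edgeR adjusted p = 0.858). Among the 16 members that earlier results of these data had not named, 13 were above 0 with a median of 0.25 and none passed. The list's median was 0.70 in Lgr5+ and 0.06 in Lgr5- cells, and it held its sign under each scaling, at 0.26 with offsets against reads per kb.

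Mef2c, a transcription factor of muscle and neural lineages (chr13:83504017-83667079, plus strand), was higher in Tspan8hi libraries. H3K27me3 over Mef2c was 161 and 145 CPM in the Lgr5+Tspan8hi and 115 and 109 CPM in the Lgr5-Tspan8hi libraries, against 86.6 and 87.6 CPM in the Lgr5+Tspan8- and 90.2 and 70.7 CPM in the Lgr5-Tspan8- libraries. The 4 Tspan8hi libraries were above the 4 Tspan8- libraries, and the Lgr5+Tspan8hi pair stood highest (log2 fold change 0.64 ± 0.11, edgeR adjusted p = 0.00481). Ntf3, the neurotrophin that binds Trk receptors of sensory neurons (chr6:126101412-126166772, minus strand), was raised alike in both Lgr5 states. The Lgr5+Tspan8hi libraries had 95.1 and 101 CPM and the Lgr5-Tspan8hi libraries 82.9 and 82.5 CPM over Ntf3, against 62.6 and 57.2 CPM in Lgr5+Tspan8- and 57.3 and 37.99 CPM in Lgr5-Tspan8- libraries. The groups were separate, with a log2 difference of 0.76 ± 0.13, edgeR adjusted p = 0.00437, and 0.71 in Lgr5+ and 0.81 in Lgr5- cells. Among 25 tested neurotrophin and axon guidance genes 21 were above 0 with a median of 0.20 and Ntf3 alone passed. The median was 0.10 without Lgr5+Tspan8- replicate 2 and 0.12 without Lgr5-Tspan8- replicate 2. Of genes of like density, between 0.651 and 0.965 CPM per kb, 64.9% were above 0, with a median of 0.09. The Ntf3 receptor gene Ntrk3 came close at 265 ± 33.5 CPM in Tspan8hi and 194 ± 23.7 CPM in Tspan8- libraries (0.45, edgeR adjusted p = 0.0548), and the neurotrophin Bdnf had 81.8 ± 7.63 CPM in Tspan8hi and 62.4 ± 10.6 CPM in Tspan8- libraries (0.39, edgeR adjusted p = 0.165).

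Fzd10, a Wnt receptor contained in a gene of 2.99 kb (chr5:128601106-128604093, plus strand), had the greatest fold among the higher genes from low levels. Over Fzd10 there were 13.3 and 22.4 CPM in Lgr5+Tspan8hi and 21.9 and 15.5 CPM in Lgr5-Tspan8hi cells, and 6.75 and 7.17 CPM in Lgr5+Tspan8- and 11.1 and 6.31 CPM in Lgr5-Tspan8- cells. Its values did not overlap, though the counts are few, and the log2 difference was 1.23 ± 0.25, edgeR adjusted p = 0.0223. Of 38 tested Wnt pathway genes 24 were above 0 and Fzd10 alone passed, with a list median of 0.13. Leaving out 1 library gave medians of 0.04 (Lgr5-Tspan8- replicate 2) to 0.24 (Lgr5-Tspan8- replicate 1), and a mean of at least 5 CPM gave 0.05. Of genes of like density, between 0.651 and 0.965 CPM per kb, 64.9% were above 0, with a median of 0.09. The ligand genes Wnt6 (0.91, edgeR adjusted p = 0.118) and Wnt5b (0.44, edgeR adjusted p = 0.184) and the R-spondin receptor genes Lgr4 (0.44, edgeR adjusted p = 0.314) and Lgr6 (0.38, edgeR adjusted p = 0.353) were above 0 without passing. The list's median was 0.38 in Lgr5+ and -0.17 in Lgr5- cells. Lgr5 itself had 95.9 ± 23.4 CPM in Tspan8hi and 103 ± 49.3 CPM in Tspan8- libraries (0.01, edgeR adjusted p = 0.987).

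Adam12, a metalloprotease of the cell surface, was higher too, at 312 ± 38.6 CPM in Tspan8hi and 200.3 ± 30.2 CPM in Tspan8- libraries (log2 fold change 0.64 ± 0.11, edgeR adjusted p = 0.00402). Hs3st3a1, which sulfates heparan sulfate, had 81.4 ± 11.04 CPM in Tspan8hi and 50.1 ± 4.82 CPM in Tspan8- libraries (log2 fold change 0.69 ± 0.12, edgeR adjusted p = 0.00768), and its close relative Hs3st3b1 had 29.7 ± 7.66 CPM in Tspan8hi and 18.3 ± 3.64 CPM in Tspan8- libraries without passing (0.67, edgeR adjusted p = 0.0942). Col6a4 (0.73), the phospholipase receptor Pla2r1 (0.58), the sorting receptor Sorcs1 (0.49), Frmd4b (0.47), the branched-chain aminotransferase Bcat1 (0.65), the sulfatase Arsj (0.62), the small GTPase Diras2 (0.74) and the RNA-binding protein Khdrbs2 (0.39) passed as well, with edgeR adjusted p from 0.0087 to 0.0487.

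The 53 lower genes had a median H3K27me3 of 1.98 CPM per kb of gene and a median length of 73.6 kb. The 21 higher genes had 0.751 CPM per kb and 107 kb, against 0.651 CPM per kb and 19.8 kb over all genes tested. Their median level was also higher, at 142 CPM for the lower and 74.3 CPM for the higher genes against 11.4 CPM over all genes, and the part of level and length in these differences was not tested. Another annotated gene overlapped 16 of the 21 higher and 31 of the 53 lower genes, and how reads in such overlaps were counted is not known.

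H3K4me3 was measured in separate libraries and was not used to find these genes, but the labels give libraries of both marks the same sample numbers, so both may come from the same chromatin. At genes with higher H3K27me3 in Tspan8hi libraries its differences lay below 0, most of them without passing the test. Of the 21 genes 20 had enough H3K4me3 counts to be tested, and H3K4me3 was below 0 at all 20, with a median log2 difference of -0.51 and a range of -1.27 to -0.12. Of the 53 genes with lower H3K27me3, 46 were tested and 18 were below 0, with a median of 0.05. Over the 16354 genes tested for both marks 51.0% were below 0. The pattern was weaker among genes at an unadjusted p under 0.05 that did not pass for H3K27me3. H3K4me3 was below 0 at 588 of 938 (62.7%) of the higher ones and also at 673 of 1192 (56.5%) of the lower ones. An unadjusted p under 0.05 as lower was reached by 11 of the 20 and 1 of the 46, against 588 of 16354. Pde3a and Asb2 passed over all genes (0.0473% of 19009 were past the threshold and 5.9% had an unadjusted p under 0.05). Leaving out each H3K4me3 library in turn left 19 or 20 of the 20 below 0, and 17 were below 0 within both Lgr5 states. Tbx2 and 2610027K06Rik start 226 bp apart, so their H3K4me3 is 1 observation rather than 2. Effective depth of the H3K4me3 libraries was likewise lower in the Tspan8hi group, at 34.6% ± 12.9 against 79.3% ± 20.4 in the Tspan8- group (± SD of 4 libraries each; p = 0.0286 by the exact permutation test), and its part in the result was not tested.

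At Asb2, H3K4me3 was 15.4 and 16.9 CPM in Lgr5+Tspan8hi and 19.6 and 14.6 CPM in Lgr5-Tspan8hi libraries. It was 31.0 and 39.0 CPM in Lgr5+Tspan8- and 42.0 and 50.7 CPM in Lgr5-Tspan8- libraries. The groups did not overlap (log2 fold change -1.27 ± 0.24, edgeR adjusted p = 0.00519). At Mrvi1 it was 38.8 ± 8.30 CPM in Tspan8hi and 60.4 ± 2.74 CPM in Tspan8- libraries (log2 fold change -0.65 ± 0.18, edgeR adjusted p = 0.263), at Tbx2 63.4 ± 19.6 CPM in Tspan8hi and 97.3 ± 39.5 CPM in Tspan8- libraries (log2 fold change -0.57 ± 0.15, edgeR adjusted p = 0.141) and at Sorcs1 43.05 ± 14.1 CPM in Tspan8hi and 69.4 ± 23.2 CPM in Tspan8- libraries (log2 fold change -0.71 ± 0.18, edgeR adjusted p = 0.131). Among the genes with lower H3K27me3, none of the 46 passed for H3K4me3. Enah had 104 ± 7.14 CPM in Tspan8hi and 104 ± 11.9 CPM in Tspan8- libraries and Ocln 95.7 ± 15.5 CPM in Tspan8hi and 91.3 ± 18.4 CPM in Tspan8- libraries of H3K4me3. Plag1 had the lowest unadjusted p among them without passing, at 101 ± 6.43 CPM in Tspan8hi and 75.3 ± 10.9 CPM in Tspan8- libraries (log2 fold change 0.44 ± 0.13, edgeR adjusted p = 0.488), and Gli1, Gli2, Lox and Loxl1 lay between 0.26 and 0.35 without passing.

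**Figure D2:**
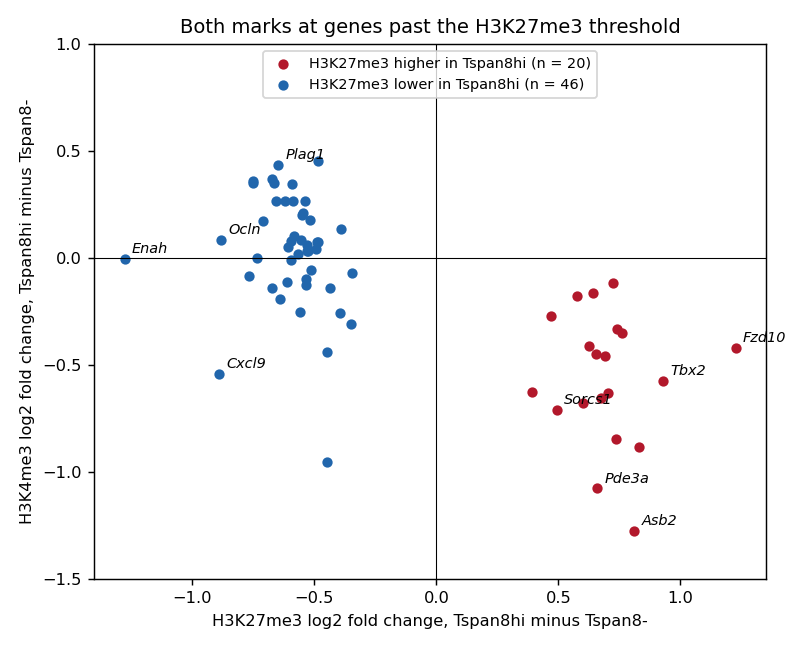
Log2 fold change (Tspan8hi minus Tspan8-) of H3K27me3 on the horizontal and H3K4me3 on the vertical axis, for the 20 higher and 46 lower genes of H3K27me3 that were tested for both marks. Each point is a gene; all 20 points with higher H3K27me3 lie below 0 on the H3K4me3 axis, while 28 of the 46 others lie above it.

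The 74 genes had the same direction in Lgr5+ and in Lgr5- cells, which their choice by the mean of both favours and which 12623 of 22099 tested genes shared. The difference was larger in Lgr5- cells at 12 of the 21 higher and 42 of the 53 lower genes, against 12033 of all 22099, and the median of the lower genes was -0.48 in Lgr5+ and -0.63 in Lgr5- cells. The test of the difference between the Lgr5 states, the interaction, passed at Grik3 and Rimklb (0.00905% of 22099 genes, with 1215 genes, 5.5%, at an unadjusted p under 0.05), and neither is among the 74. Grik3 encodes a kainate receptor subunit (chr4:125490259-125714173, plus strand). H3K27me3 over Grik3 was 184 and 119 CPM in the Lgr5+Tspan8hi and 119 and 99.97 CPM in the Lgr5-Tspan8hi libraries, against 83.8 and 88.4 CPM in the Lgr5+Tspan8- and 214 and 239 CPM in the Lgr5-Tspan8- libraries. The Tspan8hi libraries were higher in Lgr5+ cells and lower in Lgr5- cells, with log2 differences of 0.82 ± 0.17 and -1.06 ± 0.17 (edgeR interaction adjusted p = 0.000717). Rimklb, an enzyme that joins glutamate to peptides (chr6:122447296-122487062, minus strand), followed the same crossing order. The Lgr5+Tspan8hi libraries had 42.7 and 32.5 CPM and the Lgr5-Tspan8hi libraries 16.95 and 19.9 CPM over Rimklb, against 20.9 and 16.1 CPM in Lgr5+Tspan8- and 43.5 and 35.3 CPM in Lgr5-Tspan8- libraries. Its differences were 1.03 ± 0.24 and -1.07 ± 0.24 (edgeR interaction adjusted p = 0.0183). The interaction count was 110 when Lgr5-Tspan8hi replicate 2 was dropped, 33 when Lgr5-Tspan8- replicate 2 was, and 0 when either Lgr5+Tspan8- library was.

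**Figure D3:**
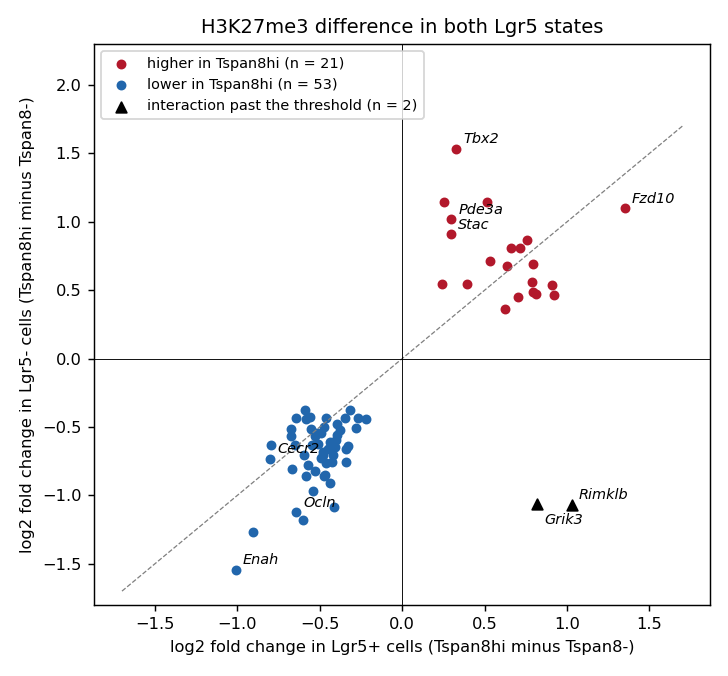
H3K27me3 log2 fold change (Tspan8hi minus Tspan8-) in Lgr5+ cells on the horizontal and in Lgr5- cells on the vertical axis, for the 21 higher and 53 lower genes and the 2 genes whose interaction passed. The dashed line marks equal values; the 74 genes fall in the 2 quadrants of equal sign, and Grik3 and Rimklb in the lower right quadrant of opposite sign.

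X-linked genes carried a smaller share of H3K27me3 in Tspan8hi libraries. Counts on X-linked genes made up 9.87% and 10.6% of the Lgr5+Tspan8hi and 10.3% and 10.3% of the Lgr5-Tspan8hi libraries. They made up 11.4% and 11.8% of the Lgr5+Tspan8- and 11.2% and 13.3% of the Lgr5-Tspan8- libraries. Every Tspan8hi library was below every Tspan8- library (10.3% ± 0.292 in Tspan8hi and 11.9% ± 0.962 in Tspan8-, ± SD of 4 libraries each; p = 0.0286 by the exact permutation test, the smallest possible here). Of 1021 tested X-linked genes 922 were below 0, with a median log2 difference of -0.27, where the autosomal median was 0.04. An unadjusted p under 0.05 as lower was reached by 430 of them (42.1%), against 5.95% of autosomal genes, and 8 passed the adjusted threshold (0.784%), against 42 autosomal genes (0.211%). On each of the 19 autosomes between 50.9% and 61.5% of genes were above 0, and on X 9.7%. In H3K4me3 the X-linked share did not differ detectably, at 1.75% ± 0.0221 in Tspan8hi and 1.74% ± 0.0352 in Tspan8- libraries (± SD of 4 libraries each; p = 0.686 by the exact permutation test).

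The X-linked genes past the threshold were 8. Frmpd4, a scaffold of synapses spanning 1106 kb, held 2309 ± 127 CPM in Tspan8hi and 2926 ± 488 CPM in Tspan8- libraries (log2 fold change -0.33 ± 0.07, edgeR adjusted p = 0.0381). Arhgap6, a GTPase activating protein 218 kb from it, had 862 and 888 CPM in Lgr5+Tspan8hi and 942 and 906 CPM in Lgr5-Tspan8hi libraries, against 1061 and 1067 CPM in Lgr5+Tspan8- and 1176 and 1448 CPM in Lgr5-Tspan8- libraries. The groups did not overlap (log2 fold change -0.39 ± 0.08, edgeR adjusted p = 0.0196). The others were Xk (-0.61), Rp2 (-0.64), Otud5 (-0.59), Tbc1d25 (-0.71), Aff2 (-0.35) and 5430428K19Rik (-0.45), and each had all Tspan8hi libraries below all Tspan8- libraries. Such separation was common on X, at 220 of 1021 tested X-linked genes, against 782 of 22099 over all genes tested.

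X-linked genes are covered more densely than most, with a median of 2.64 CPM per kb against 0.597 on autosomes, so they were read within 10 equal bins of all genes by CPM per kb, with bin 10 the densest. In bin 10 the X-linked median was -0.24 and the autosomal median -0.22. In every other bin X-linked genes were further below the autosomal ones, such as -0.30 against -0.13 in bin 9 and -0.40 against 0.09 in bin 6, although bins 1 to 7 held 5 to 42 X-linked genes each. With offsets fitted against reads per kb the X-linked median was -0.14 and the autosomal 0.01, and 811 of 1021 X-linked genes were below 0. Without Lgr5-Tspan8- replicate 2, the library with the highest X-linked share, the median was -0.19, and without Lgr5-Tspan8- replicate 1 it was -0.37.

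**Figure D4:**
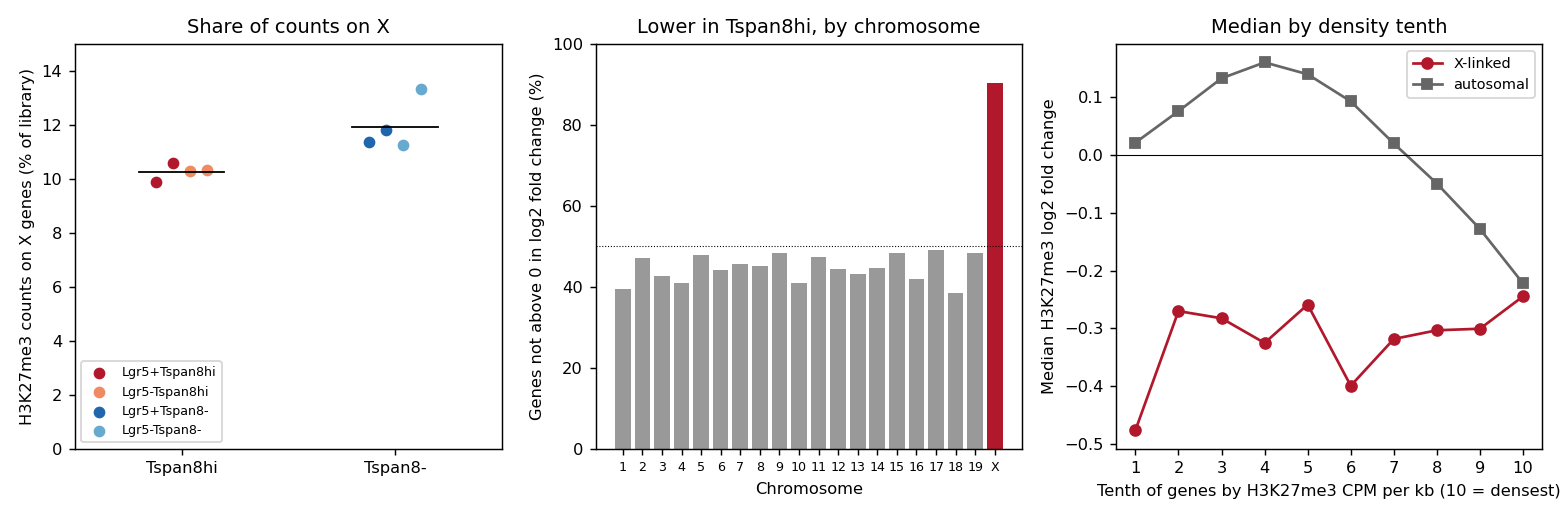
Left, the percent of H3K27me3 counts on X-linked genes in each library (points; lines are means of 4 libraries), which is 9.87% to 10.6% in Tspan8hi and 11.2% to 13.3% in Tspan8-. Middle, the percent of tested genes on each chromosome whose log2 fold change (Tspan8hi minus Tspan8-) was not above 0, with the X bar far above all autosomes. Right, the median log2 fold change of X-linked and autosomal genes in 10 bins of H3K27me3 density; the X-linked medians are below 0 in all of them.

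Densely covered autosomal regulators lay below 0 as well, with none past the threshold. Hox genes, which set position along the body axis, lay below 0 at 21 of 22 tested members of clusters A and B and 19 of 19 of clusters C and D, with medians of -0.25 and -0.32. Developmental transcription factors lay below 0 at 44 of 45, with a median of -0.30, and 27 of them had an unadjusted p under 0.05. As lower, 7.6% of all tested genes and 667 of the 2095 genes of bin 10 reached such a p. Without Lgr5-Tspan8- replicate 2, which held 18.4% of its counts in bin 10, the medians were -0.17, -0.18 and -0.15, and without replicate 1 of that subpopulation -0.39, -0.43 and -0.43. Evx1 had 49.6 ± 9.39 CPM in Tspan8hi and 74.4 ± 16.002 CPM in Tspan8- libraries (-0.57, edgeR adjusted p = 0.0786) and Lhx9, a factor of limb and gonad development, 193 ± 17.9 CPM in Tspan8hi and 253 ± 38.5 CPM in Tspan8- libraries (-0.38, edgeR adjusted p = 0.0756). Pax3, of neural crest and muscle, had 504 ± 39.4 CPM in Tspan8hi and 645 ± 94.3 CPM in Tspan8- libraries (-0.35, edgeR adjusted p = 0.08), with no overlap between the groups. In bin 10 of all genes 1705 of 2095 were below 0, with a median of -0.23, whereas in bin 4 the median was 0.16. The share of counts in bin 10 was 14.0% ± 0.853 in Tspan8hi and 16.01% ± 1.71 in Tspan8- libraries (± SD of 4 libraries each; p = 0.0571 by the exact permutation test). With offsets fitted against reads per kb, which remove this trend by construction, the medians were -0.05, -0.09 and -0.08 for the 3 lists. The lower effective depth moved with these groups, and its part in them was not tested.

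Basal genes and markers of other cell types gave no gene past the threshold apart from Pparg. Of 24 tested basal and myoepithelial genes 19 were above 0 with a median of 0.22, made of 0.78 in Lgr5+ and -0.16 in Lgr5- cells. Among all genes of like density, between 0.307 and 0.418 CPM per kb, 73.8% were above 0, with a median of 0.16. The median was 0.10 without Lgr5+Tspan8hi replicate 1, 0.06 without Lgr5-Tspan8- replicate 2, 0.37 without replicate 1 of that subpopulation and 0.10 with offsets against reads per kb. Summed over the basal genes, H3K27me3 was 647 to 978 CPM in Tspan8hi and 560.1 to 856 CPM in Tspan8- libraries. The sum over luminal progenitor genes was 255 to 309 CPM in Tspan8hi and 247 to 307 CPM in Tspan8- libraries. Fibroblast genes summed to 519 to 557 CPM in Tspan8hi and 531 to 581 CPM in Tspan8- libraries, and immune genes to 791 to 922 CPM in Tspan8hi and 909 to 1155 CPM in Tspan8- libraries. The medians of the luminal progenitor, hormone-sensing luminal, fibroblast, pericyte, endothelial and immune lists lay between -0.06 and -0.02, and their signs changed under at least 1 scaling. The pan-luminal median was 0.15 (-0.01 with offsets against reads per kb). That of imprinted growth regulators, of which 13 of 18 were below 0, was -0.24. Genes of like density, between 1.92 and 2.87 CPM per kb, were below 0 at 1571 of 2095, with a median of -0.16. Other lists with a called gene had medians of 0.04 for 24 metalloproteinases (Adamts6 called), 0.04 for 20 heparan sulfate enzymes (Hs3st3a1), 0.06 for 24 epithelial transcription factors (Tbx2), 0.03 for 17 chemokine and interferon genes (Cxcl9), 0.07 for chromatin remodelling, -0.05 for junctions and -0.08 for the Hedgehog pathway. No gene passed in the Notch (17 tested, median 0.17), TGF-beta and BMP (24, -0.01), FGF (19, -0.04), cell cycle (17, 0.17), ribosomal protein (7, -0.17), Schwann cell (10, 0.07) or epidermal keratinocyte lists (10, -0.19).

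**Figure D5:**
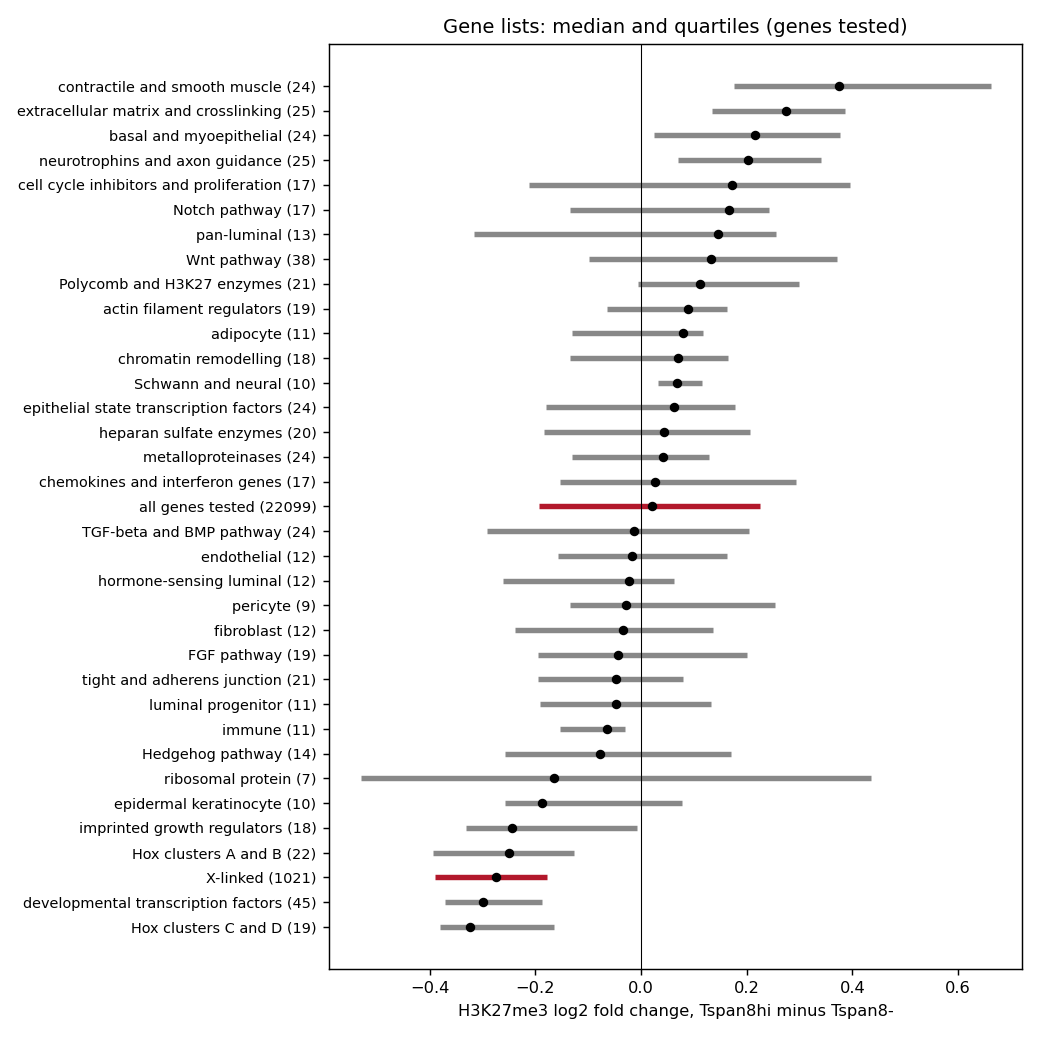
Median (points) and quartiles (bars) of the H3K27me3 log2 fold change, Tspan8hi minus Tspan8-, for each gene list, with the number of genes tested in brackets. All tested genes and X-linked genes are in red; contractile genes lie highest at 0.37, and Hox, developmental and X-linked genes lowest.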

How the data were processed

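H3K27me3 and H3K4me3 were profiled by chromatin immunoprecipitation and sequencing in sorted basal cells. The authors deposited 1 table of raw counts per gene for each library, for which the submitters' processing notes name featureCounts and mm10. What aligner, tool versions and annotation were used, which region was counted for each gene and whether duplicates were removed is not given in the sources used here. Input samples were not analysed here.

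Each table held 27080 Entrez genes, of which 25189 matched a symbol in RefSeq's GRCm38.p6 tables. Genes were kept by edgeR's filterByExpr over the 4 subpopulations, scaled by TMM and tested with edgeR 4.0.16 (R 4.3.3), using robust quasi-likelihood fits of the 4 subpopulations and the contrast of the mean of both Tspan8hi against the mean of both Tspan8- subpopulations. Calls needed a Benjamini-Hochberg adjusted p under 0.05. Each fold change is Tspan8hi minus Tspan8- on the log2 scale with its standard error. CPM are counts relative to the TMM-scaled library total. Values of single libraries were compared with exact two-sided permutation tests (SciPy 1.17.1, pandas 2.3.3). Alternatives used limma 3.58.1, DESeq2 1.42.0, other scalings and filters, a replicate block and each library left out.

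Named genes were the 15 higher and 20 lower called genes of smallest adjusted p, leaving out clones and predicted genes, up to 4 members of smallest p per gene list, neighbours among the calls within 100 kb and genes past the interaction test. Other called genes are given by symbol. Krt5, Krt14, Ptprc and Pecam1 were read as cell type markers. Acta2, Kcnma1, Lgr4, Lgr6 and Col4a1 fall outside this rule and were named after their values were seen, as were the uncharacterized transcripts. The members and the 33 lists were chosen with earlier results of these data known. A further gene past the threshold is not reported by name here.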

Additional observations from a re-analysis of the deposited data

Results flagged for a closer look

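In 310 groups of 4 libraries the library farthest from the others was tested with Dixon's ratio, which chance passes in about 5% of groups. It was passed in 19 groups (6.13%), a share near that of chance. Most of these were in Lgr5-Tspan8- replicate 2. Its H3K27me3 was 51.4 CPM over Bcat1 and 85.7 CPM over Fbn2, below the other Tspan8- libraries at 72.9 to 75.8 and 134.8 to 135.5 CPM. It was above the other Tspan8- libraries over Tnfsf11 at 216 CPM, Cldn7 at 42.2, Pi16 at 51.7, Bmp4 at 60.7, Shh at 133, Fn1 at 439, Hoxa3 at 636, Hoxa5 at 50.9 and Pax3 at 786 CPM. Lgr5-Tspan8- replicate 1 stood above its group over Wnt6 at 21.5 CPM and Slit3 at 409 CPM. In the Tspan8hi group, Lgr5-Tspan8hi replicate 1 was high over Mfge8 at 15.1 CPM and Plagl1 at 39.6 CPM and low over Krt7 at 8.29 CPM, Lgr5-Tspan8hi replicate 2 was high over Vwf at 159.9 CPM, and Lgr5+Tspan8hi replicate 1 was high over Slit3 at 552 CPM. The effective depth of Lgr5-Tspan8hi replicate 1 was 31.1%, where the other Tspan8hi libraries had 59.3% to 64.6%. The causes were not tested.

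The Tspan8 difference itself differed between Lgr5+ and Lgr5- cells at Grik3, by 1.88 on the log2 scale, and at Rimklb, by 2.10, both by edgeR's interaction test over all genes.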

How the results depend on the processing

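Among the values of named genes under alternatives, 2258 kept their direction and side of the threshold, 154 newly passed, 138 no longer passed and 5 moved, and none reversed. The count of genes past the threshold (74, with 21 higher and 53 lower) was 476 (91 and 385) with DESeq2, 340 (83 and 257) with limma-voom, 141 (53 and 88) with offsets against reads per kb and 312 (61 and 251) without a filter. It was 136 with 113 lower at a mean of at least 5 CPM, 36 higher and 28 lower with library totals, and 53 higher with loess offsets against mean abundance. Leaving out 1 library gave 6 to 1091 genes, 2 to 207 higher and 4 to 884 lower, with 583 when Lgr5-Tspan8hi replicate 2 was dropped and 1091 when replicate 1 of Lgr5-Tspan8- was. The interaction count of 2 was 12 with DESeq2, 4 with offsets against reads per kb, 15 without a filter and 0 to 110 leaving out 1 library. The H3K4me3 count of 9 was 1 to 64 leaving out 1 library. The replicate block gave 678 genes (176 higher, 502 lower) and 13 for the interaction, and whether the replicate numbers pair the samples is not known. Deviations of same-numbered H3K27me3 libraries correlated at 0.0207 to 0.233. The correlation was 0.233 between Lgr5+Tspan8hi and Lgr5-Tspan8- libraries and 0.222 between Lgr5+Tspan8- and Lgr5-Tspan8- libraries. In H3K4me3 the same pairs gave 0.141 and 0.203. The effective depth difference of -21.9 was -23.4 (exact permutation p = 0.171) over autosomal genes of at least 10 kb, and -25.4 to -14.2 leaving out 1 library. The causes were not tested. Each subpopulation had 2 libraries, which left 4 residual degrees of freedom, and the effect of depth on the calls was not tested.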
